A study of Homo sapiens with 29 samples.

Results

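The genes of zinc finger transcription factors were examined, namely those whose current symbol is ZNF, ZFP, ZBTB, ZFHX, ZSCAN, ZKSCAN, IKZF or ZEB followed by a number. The rule found 83 of the 4592 genes in the DRB/TTchem-seq tables: 70 ZNF, 4 ZBTB, 3 IKZF, 2 ZEB, 2 ZFP, 1 ZFHX and 1 ZSCAN gene, and no ZKSCAN gene. HEK293, a human embryonic kidney cell line, was transduced for 4 days with lentivirus that carried a control hairpin (shCtrl) or a hairpin against THOC5 (shTHOC5), a subunit of the THO complex that couples transcription to mRNA processing and export. All cells of both series were held in 100 μM DRB for 3.5 h, which keeps RNA polymerase II (Pol II) close to the start of genes, and were collected 10, 20, 30 or 40 min after its removal with the newest RNA labelled by 1 mM 4SU. Sequencing of the labelled RNA shows how far the released wave of Pol II has moved, and the comparison asks whether the wave lies elsewhere when THOC5 is depleted.

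Zinc finger proteins of the C2H2 kind fold around a zinc ion held by a pair of cysteines and a pair of histidines, and arrays of such fingers read DNA sequence. Many ZNF proteins also carry a KRAB domain, which recruits the corepressor TRIM28 and the methyltransferase SETDB1 to silence transposable elements, whereas ZBTB proteins carry a BTB domain and SCAN domains pair proteins with each other. Their genes arose by tandem duplication and often lie side by side, most of all on human chromosome 19, so that a window measured from one gene readily reaches the next one. In the canonical transcripts of GENCODE release 44, translated from the genome, 82 of the 83 genes encoded at least 1 C2H2 finger, with a median of 10 and a maximum of 36. The exception, ZNF185, encodes a LIM domain protein of the actin cytoskeleton and is a zinc finger factor by symbol alone.

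Each series had 1 library per release time, 8 libraries in all, so there was no replicate error, no test was run and no p-value is given. The intervals below are 95% intervals over genes, or over calls where stated (Wilson for shares, exact binomial for medians). They give the uncertainty of a share or median if genes were drawn independently. Neighbouring genes can share a called position, and genes are not replicates of a condition. The window of each gene ran from 2 kb before the listed start to 120 kb after it, and a wave peak is the position called in that window, given in kb from the listed start. A peak at -1.999 kb or at 120 kb is the first or the last position of the window, where the called place is the edge itself. Coverage is given as RPM, reads scaled to a common total, with 1 value per window and series, so read numbers of single libraries cannot be stated. The tables hold no row for THOC5, and the knockdown itself was not examined. Chromosome and gene coordinates came from GENCODE on GRCh38 for all 83 genes. Peaks were placed on the genome for the 80 genes whose width there equals the listed one, so those of ZNF292, ZNF568 and ZNF83 were not.

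The windows of the zinc finger genes were covered at about the level of those of all listed genes. Their median coverage was 108 RPM in shCtrl (interval 81.9 to 144) and 129 RPM in shTHOC5 (114 to 181). Over all listed genes it was 110 and 132 RPM. Coverage counts the whole window, which ran past the gene end in the 57 genes under 120 kb, with medians of 137 and 178 RPM. In the 26 wider genes, where the window ends inside the gene, the medians were 75.8 and 103 RPM. The level of transcription of the genes alone was therefore not measured. Coverage was higher in shTHOC5 for 53 of the 83 genes (63.9%), beside 56.7% of all listed genes, with a median ratio of 1.20 beside 1.09. The range was wide. ZNF273 had 721 RPM in shCtrl and 1497 RPM in shTHOC5, ZNF490 had 942 and 528 RPM, and ZNF385C had 833 and 548 RPM. The lowest mean coverage over both series was that of ZNF831 with 3.04 and 1.79 RPM, followed by ZNF366 with 11.04 and 10.1 RPM and IKZF1, the lymphoid factor Ikaros, with 11.3 and 13.4 RPM. The largest ratio between the series was that of ZBTB16 (the factor PLZF), from 5.34 to 37.2 RPM. The lowest was that of ZNF730, from 33.3 to 14.1 RPM. All these values lie well below the medians of the set, and without read numbers their counting error could not be given.

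The called peaks did not form 1 advancing front. In shCtrl the first position of the window was called for 35 of the 83 genes at 10 min, 21 at 20 min, 16 at 30 min and 9 at 40 min (42.2, 25.3, 19.3 and 10.8%, beside 33.8, 27.0, 18.9 and 15.6% of all listed genes). In shTHOC5 these counts were 40, 26, 14 and 10 (48.2, 31.3, 16.9 and 12.0%, beside 47.5, 30.2, 21.2 and 15.0%). The last position was called for 9, 8, 8 and 10 genes in shCtrl, beside 8.91, 9.39, 10.0 and 10.3% of all listed genes, and for 4, 7, 8 and 10 in shTHOC5, beside 7.32, 7.21, 8.51 and 9.91%. Genes thus left the first position as time passed in both series, while the number at the last position hardly moved in shCtrl and grew in shTHOC5. Peaks inside the gene and past its start were called for 32, 44, 49 and 55 genes in shCtrl, beside 49.5, 54.6, 62.5 and 65.9% of all listed genes, and for 29, 40, 49 and 52 genes in shTHOC5, beside 36.0, 52.9, 61.6 and 67.2%. The shares over all listed genes lay inside the members' intervals for each of these counts but 1, the peaks inside the gene at 10 min in shCtrl (38.6%, interval 28.8 to 49.3%).

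**Figure D1:**
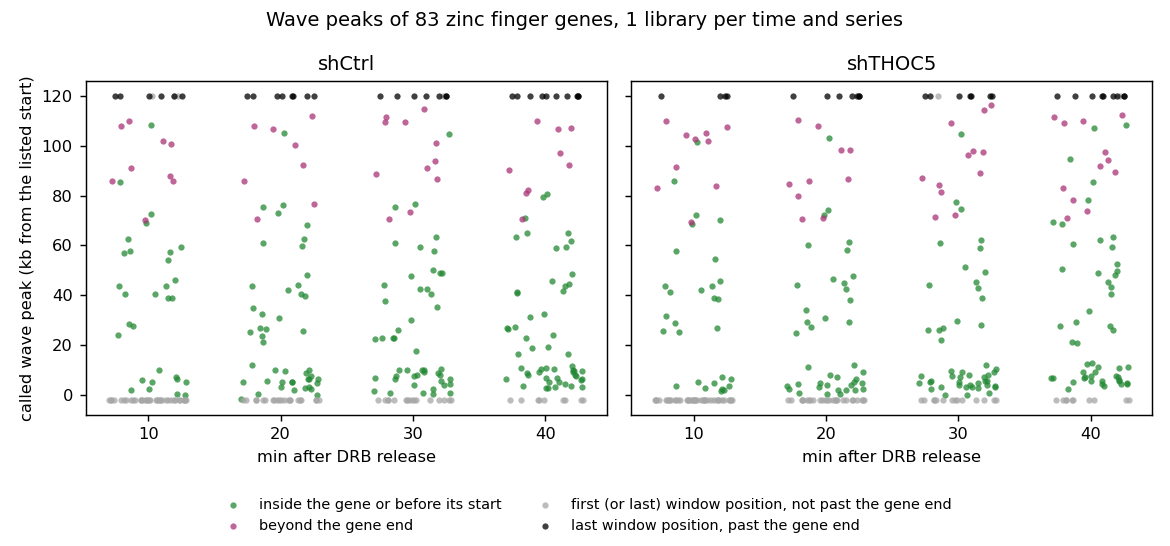
Called wave peak of each of the 83 zinc finger genes in kb from the listed start (vertical axis) against release time in min (horizontal axis, points spread sideways at random within a time), for shCtrl (left) and shTHOC5 (right). Colours mark peaks inside the gene or before its start, peaks beyond its end and peaks at the first or last window position; at 10 min 35 genes of shCtrl and 40 of shTHOC5 sit at the first position, and 9 and 10 still do at 40 min.

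Since the window is 120 kb long and the narrowest gene is 60.2 kb wide, a peak can be called past the end of its gene. In shCtrl this was so for 15 zinc finger genes at 10 min (18.1%, beside 16.1% of all listed genes), 16 at 20 min (19.3%, beside 17.7%), 18 at 30 min (21.7%, beside 18.0%) and 19 at 40 min (22.9%, beside 18.2%). In shTHOC5 it was so for 14 genes at 10 min (16.9%, beside 15.2%), 17 at 20 min (20.5%, beside 15.6%), 19 at 30 min (22.9%, beside 16.6%) and 21 at 40 min (25.3%, beside 17.6%). The share over all listed genes lay inside the members' interval in each of the 8 libraries, for example 17.2 to 35.6% at 40 min in shTHOC5. The share differed between width classes. Of the 33 zinc finger genes from 60 to 80 kb wide, 14 had the peak past the end at 40 min in shCtrl (42.4%, beside 39.4% of all genes of that width), and of the 24 genes from 80 to 120 kb wide 5 did (20.8%, beside 24.9%). None of the 26 wider genes could, as the window ends inside them.

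**Figure D2:**
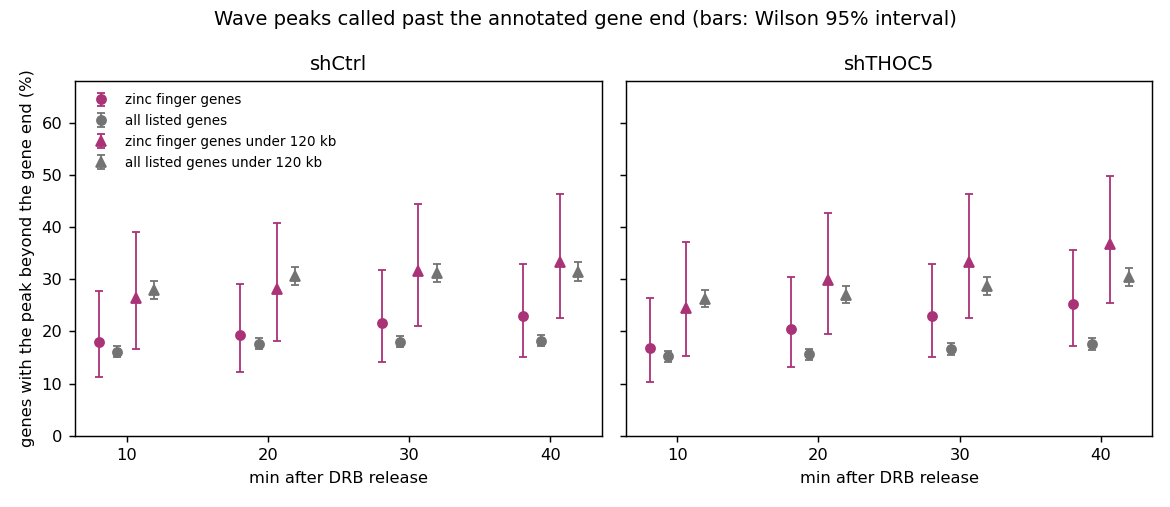
Share of genes whose wave peak was called past the gene end (vertical axis, percent) against release time in min (horizontal axis) in shCtrl (left) and shTHOC5 (right). Circles are all genes of a group and triangles those under 120 kb; bars are Wilson 95% intervals over genes, and the shares of zinc finger genes, 18.1 to 22.9% in shCtrl and 16.9 to 25.3% in shTHOC5, have intervals that take in the grey circles.

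What lay under those distant peaks could be read from the annotation. Leaving out the window edges, 81 calls of zinc finger genes fell past the gene end. Another protein-coding gene on the same strand covered 40 of them (49.4%, interval over calls 38.8 to 60.05%). A gene on the opposite strand alone covered 27 (33.3%), and 14 (17.3%) had no other gene over them. Over all listed genes the shares were 42.4%, 42.0% and 15.6% of 3750 calls. Of the 81 calls, 64 (79.0%) lay in another gene and within 20 kb downstream of the start of its canonical transcript, beside 71.6% of all such calls. Calls of one gene in different libraries share that gene and its neighbour, so they are not independent and the interval over calls is too narrow.

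ZNF341, a factor required for expression of STAT3, was the single zinc finger gene that passed the authors' filters in both series. The gene is 60.6 kb wide (chr20:33731657-33792269, plus strand), and its called peaks were at 87.8, 92.5, 93.8 and 120 kb in shCtrl and at 84.1, 86.8, 89.3 and 120 kb in shTHOC5. All 8 peaks were therefore past its end. At 10, 20 and 30 min they lay in CHMP4B, a component of the ESCRT-III membrane scission machinery on the same strand, 8.13, 12.8 and 14.1 kb from the canonical start of that gene in shCtrl and 4.37, 7.12 and 9.62 kb from it in shTHOC5. The difference, shTHOC5 minus shCtrl, was -3.765, -5.705 and -4.503 kb at these times, and both series reached the end of the window at 40 min. The deposited rates of ZNF341, 2.50 kb/min in shCtrl and 2.49 kb/min in shTHOC5, were thus drawn through positions in its neighbour. The bases before the RefSeq start of CHMP4B (GRCh38.p14, chr20:33811228-33811347, plus strand) are shown because the wave listed under ZNF341 lies downstream of them, with each CG dinucleotide in capitals.
CHMP4B, before the RefSeq start: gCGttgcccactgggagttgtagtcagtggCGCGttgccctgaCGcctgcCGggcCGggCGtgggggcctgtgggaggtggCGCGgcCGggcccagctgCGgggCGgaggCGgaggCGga

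The other genes of high coverage with all 8 peaks past the gene end were ZNF385C and ZNF432, and both passed the filters in shTHOC5 alone. ZNF385C, 72.9 kb wide (chr17:42025576-42098479, minus strand), had peaks at 85.9, 85.8, 88.7 and 90.4 kb in shCtrl and at 83.01, 84.7, 86.9 and 112 kb in shTHOC5. They lay in DNAJC7, a cochaperone gene on the same strand, and the shCtrl peaks were 4.91, 4.78, 7.65 and 9.38 kb from its canonical start. In shTHOC5 the first 3 were 1.97, 3.70 and 5.90 kb from that start, nearer than in shCtrl at each of these times. ZNF432, 64.4 kb wide (chr19:52031378-52095738, minus strand), had shTHOC5 peaks at 69.4, 71.2, 72.2 and 73.8 kb, which were 2.05, 3.82, 4.80 and 6.43 kb into ZNF614, the next zinc finger gene on the strand. In shCtrl it was called at 70.1 and 73.5 kb at 10 and 30 min and at the last position of the window at 20 and 40 min. The rising order of the 4 peaks in shTHOC5 was thus read from positions in ZNF614.

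Neighbours of the same kind recurred. The peaks of ZNF19 lay in ZNF23 in 7 libraries, those of ZNF197 at 20, 30 and 40 min lay 6.60 to 7.61 kb into ZNF35, and those of ZNF280C fell in AIFM1, a mitochondrial flavoprotein gene, at 10, 20 and 30 min in shCtrl and at 40 min in shTHOC5. On the opposite strand, peaks of ZNF235 past its end lay in ZNF227, those of ZNF710 in IDH2 (mitochondrial isocitrate dehydrogenase) and those of ZNF565 in CAPNS1 (the small calpain subunit). A wave on the opposite strand runs towards the listed start. ZNF235 was called at 91.5, 86.1, 81.7 and 78.4 kb in shTHOC5, nearer its own start at each later time, while the distance from the canonical start of ZNF227 grew from 1.04 to 6.44, 10.9 and 14.2 kb.

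ZNF540 and ZFP30 gave the clearest case, as both are listed and they overlap end to end on opposite strands. ZNF540 is on the plus strand (chr19:37551406-37614179) and ZFP30 on the minus strand (chr19:37613749-37692337). The peaks of ZNF540 were called at 102, 101, 91.0 and 97.3 kb in shCtrl and at 102, 98.5, 98.1 and 97.5 kb in shTHOC5, past the end of the 62.8 kb gene in all 8 libraries. Those of ZFP30, at 39.0, 40.5, 49.9 and 43.7 kb in shCtrl and at 38.8, 42.5, 42.9 and 43.5 kb in shTHOC5, were inside its 78.6 kb. On the genome the peaks of both genes were 2 to 64 bp apart in all 8 libraries. One position was therefore listed for both genes. In shTHOC5 it moved down ZFP30 and back up ZNF540 at each later time. In shCtrl it did so at first but turned back at the last time. There it went from 49.9 to 43.7 kb in ZFP30 and from 91.0 to 97.3 kb in ZNF540. The deposited rates were positive for both, 1.88 and 1.95 kb/min for ZNF540 and 1.02 and 0.95 kb/min for ZFP30. The slope over the 4 times alone was -0.24 and -0.14 kb/min for ZNF540 and 0.24 and 0.14 kb/min for ZFP30. How the strand of the reads was used in calling the peaks is not given in the sources used here.

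**Figure D3:**
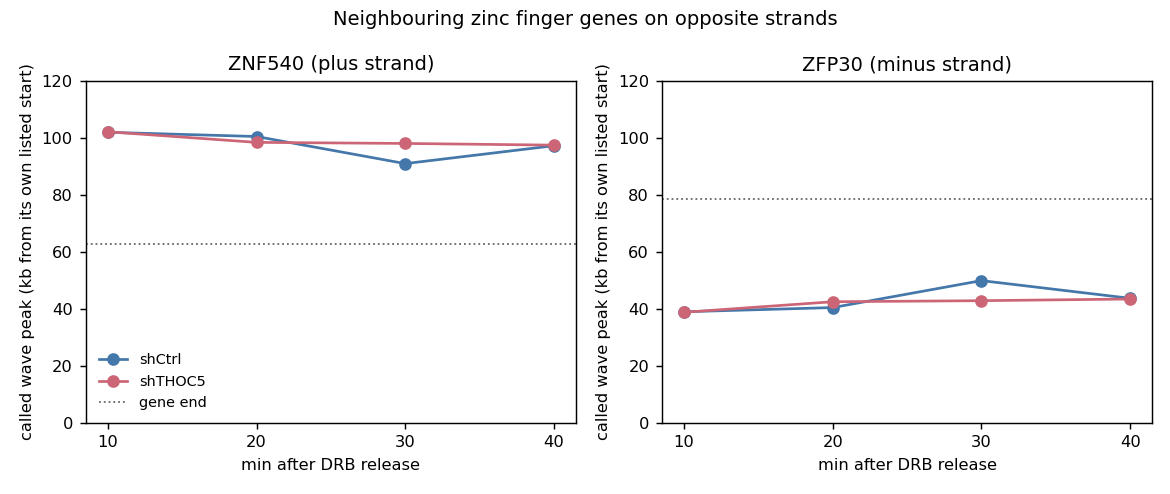
Called wave peak in kb from each gene's own listed start (vertical axis) against release time in min (horizontal axis) for ZNF540 (left) and ZFP30 (right), 1 point per library; the dotted line is the gene end. The ZNF540 peaks, 91.0 to 102 kb, lie above its end and mirror those of ZFP30, 38.8 to 49.9 kb.

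Some of these genes lay close together in the list itself. Chromosome 19 held 25 of the 83 zinc finger genes and 103 of the 4592 listed genes. With neighbours up to 500 kb apart counted as a cluster, 29 of the 83 genes fell into 9 clusters. Such a cluster is set by distance alone, so its genes need not be tandem copies. The share of all listed genes in clusters of this kind is not given here. Of the clustered genes 10 of 29 had a peak past the gene end in at least 1 library, and of the others 15 of 54, beside 26.4% of all listed genes. On chromosome 19, 9 of 25 zinc finger genes had the peak past the end at 40 min in either series (36.0%), beside 35.9% in shCtrl and 34.0% in shTHOC5 for all listed genes of that chromosome. Elsewhere it was 10 of 58 in shCtrl (17.2%) and 12 of 58 in shTHOC5 (20.7%).

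In the largest cluster (chr19:36182276-37817300) lay ZNF565, ZNF529, ZNF345, ZNF568, ZNF420, ZNF540, ZFP30 and ZNF573. Each behaved in its own way. ZNF565 was called at 101, 25.5, 101 and 16.4 kb in shCtrl and at 26.9, 29.1, 28.0 and 25.8 kb in shTHOC5. ZNF529 was called at the last position at 10 and 20 min and then at 37.8 and 41.2 kb in shCtrl, and at 31.7, 79.8, 120 and 83.3 kb in shTHOC5. ZNF345 and ZNF568 stayed at the first position at 10 and 20 min in both series. ZNF345 was then at 9.80 and 10.2 kb in shCtrl and at -0.12 and 62.0 kb in shTHOC5. ZNF568 left the first position at 40 min in shCtrl alone, for 10.9 kb. ZNF573 stood deep inside its gene, at 38.7, 39.7, 35.3 and 44.5 kb in shCtrl and at 38.3, 38.1, 39.0 and 48.2 kb in shTHOC5, and ZNF420, described below, did so too. In the cluster at chr19:51804816-52857600, with ZNF577, ZNF432, ZNF578, ZNF83 and ZNF28, both ZNF578 and ZNF83 were at the last position in all 8 libraries. ZNF577 was at the first position in 7 of 8 libraries, and ZNF28 changed place with no order (1.73, 21.2, 6.38 and 8.77 kb in shCtrl).

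A second group of peaks stood far inside the gene already at 10 min. The Ensembl canonical transcript, the one chosen by Ensembl to represent the gene, began more than 10 kb downstream of the listed start in 24 of the 80 zinc finger genes of equal width (30.0%, interval 21.1 to 40.8%), beside 18.9% of the 4416 genes of equal width. On chromosome 19 it did so in 14 of 23, and the share for all listed genes of that chromosome is not given here. Elsewhere it did so in 10 of 57 (17.5%, interval 9.82 to 29.4%), near the share over all listed genes. In the related lists described below it was 8 of 15 corepressor genes, 6 of 24 other C2H2 factors and 1 of 10 genes with other folds. In 9 of the 24 (37.5%, interval 21.2 to 57.3%) all 8 peaks lay 0 to 20 kb past that later start, beside 17.8% of the 835 listed genes with such a start. These 9 were ZBTB40, ZFP30, ZNF273, ZNF331, ZNF420, ZNF638, ZNF658, ZNF800 and ZSCAN5A. The criterion was chosen after the positions were seen and fixes where the peaks of the 9 lie. In 8 of the 24 no peak lay there.

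ZNF420, a repressor of p53 activity, shows the difference between the starts. Its listed gene (chr19:37007857-37130368, plus strand) begins 70.6 kb before the canonical start, and the first RefSeq start is 70.4 kb in as well. The peaks were called at 72.7, 76.2, 76.8 and 80.7 kb in shCtrl and at 72.3, 74.4, 74.7 and 85.5 kb in shTHOC5. Counted from the canonical start they were at 2.14, 5.59, 6.20 and 10.1 kb and at 1.74, 3.84, 4.15 and 14.9 kb, in order in both series. ZNF638, an RNA- and DNA-binding nuclear protein that works with the HUSH silencing complex (chr2:71276561-71435069, plus strand), had its canonical start at 55.2 kb. Its peaks at 57.8, 61.1, 60.9 and 65.0 kb in shCtrl and 57.5, 60.1, 61.1 and 60.7 kb in shTHOC5 became 2.55, 5.89, 5.71 and 9.78 kb and 2.33, 4.88, 5.86 and 5.48 kb. The sequences before both starts of these genes are printed so that they can be compared. They are the nearest 120 bases upstream that touch no annotated exon, on the plus strand of GRCh38, with each CG dinucleotide in capitals. The stretch for the listed start of ZNF420 is chr19:37007737-37007856 and that for its RefSeq start chr19:37077978-37078097, and those of ZNF638 are chr2:71276441-71276560 and chr2:71331608-71331727.
ZNF420, before the listed start: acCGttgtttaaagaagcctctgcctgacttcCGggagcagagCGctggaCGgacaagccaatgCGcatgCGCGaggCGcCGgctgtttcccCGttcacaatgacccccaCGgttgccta
ZNF420, before the RefSeq start: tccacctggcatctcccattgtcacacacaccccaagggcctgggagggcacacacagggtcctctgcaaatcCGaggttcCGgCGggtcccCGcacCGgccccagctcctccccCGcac
ZNF638, before the listed start: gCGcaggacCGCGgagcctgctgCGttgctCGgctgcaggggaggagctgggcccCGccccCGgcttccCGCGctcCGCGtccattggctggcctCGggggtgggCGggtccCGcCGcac
ZNF638, before the RefSeq start: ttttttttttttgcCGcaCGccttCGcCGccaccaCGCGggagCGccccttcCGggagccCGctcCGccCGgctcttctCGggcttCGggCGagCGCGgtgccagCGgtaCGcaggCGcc

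Both starts of both genes lay in sequence with CG dinucleotides. There were 11 in the stretch before the listed start of ZNF420 and 6 before its RefSeq start, and 15 and 19 in those of ZNF638. The listed stretches end at the start, whereas the RefSeq stretches end 124 bp (ZNF420) and 54 bp (ZNF638) before it. In the 120 bases directly before the canonical start there were 11 in ZNF420 and 17 in ZNF638. In the 120 bases directly before the start, RefSeq promoters held a median of 6 (quartiles 1 and 12) over 35116 entries. The 24 zinc finger genes with a later canonical start held a median of 9.5 before the listed and 10.5 before the canonical start, with more at the canonical start in 15 of them. The GC box GGGCGG, searched on both strands, was present before the listed start in 9 and before the canonical start in 12 of the 24 (37.5% and 50.0%), beside 34.0% of all RefSeq entries. Of the 20 genes among the 24 that matched a RefSeq promoter entry, 14 had their first RefSeq start more than 10 kb inside the listed gene too, and 4 had one within 1 kb of the listed start.

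Counting from another start changes the rates by an amount fixed by the distance between the starts. The fall in the rates below thus follows from the choice of these 9 genes and is not a result. Over the 9 genes the median deposited rate was 1.02 kb/min in shCtrl (interval 0.651 to 1.37) and 1.07 kb/min in shTHOC5 (0.635 to 1.29). With positions counted in the same way from the canonical start it was 0.194 kb/min (0.157 to 0.283) and 0.212 kb/min (0.185 to 0.324), and over the 4 times alone it was 0.111 and 0.143 kb/min. The median place past the canonical start was 2.55, 5.59, 4.64 and 8.27 kb in shCtrl and 2.31, 4.88, 5.86 and 6.59 kb in shTHOC5. ZNF273, the gene of highest coverage in shTHOC5, did not move with time in this sense. It was called at 10.7, 10.8, 7.20 and 8.54 kb past the canonical start in shCtrl and at 10.6, 11.7, 12.3 and 12.1 kb in shTHOC5. Its first RefSeq start lies 7.43 kb from the listed one. ZNF490, the gene of highest coverage in shCtrl, was called at 28.4, 23.4, 22.6 and 22.7 kb in shCtrl and at 28.8, 29.0, 25.8 and 21.3 kb in shTHOC5. These positions lie before its canonical start at 29.3 kb and were nearer the listed start at 40 than at 10 min in both series.

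**Figure D4:**
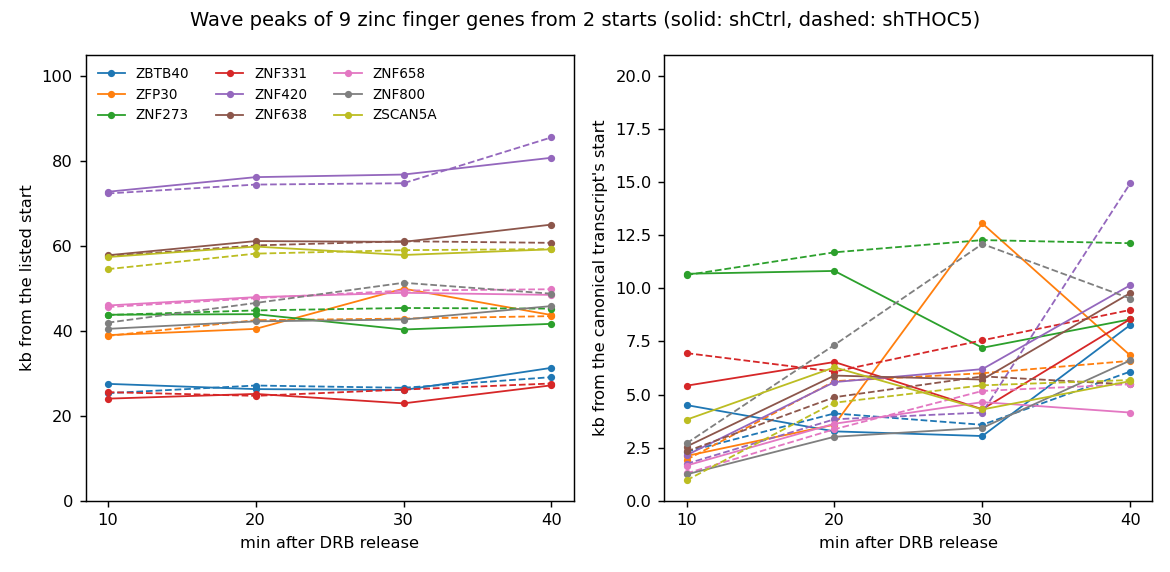
Wave peaks of the 9 zinc finger genes with all 8 peaks 0 to 20 kb past the canonical start, in kb from the listed start (left) and from the canonical transcript's start (right), against release time in min; solid lines are shCtrl, dashed lines shTHOC5 and each point is 1 library. The lines are widely spread on the left and, by the choice of these genes, lie within 20 kb on the right, with medians of 2.55 kb in shCtrl and 2.31 kb in shTHOC5 at 10 min.

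In other zinc finger genes the called wave moved away from the listed start. ZNF644, a partner of the histone methyltransferases G9a and GLP (chr1:90915298-91022272, minus strand), was called at the first position, -1.66, 1.32 and 6.26 kb in shCtrl and at the first position, 3.43, 4.85 and 6.50 kb in shTHOC5. It was farther along in shTHOC5 at 20 and 30 min, by 5.08 and 3.52 kb, and 0.24 kb apart at 40 min. ZNF318, a nuclear protein needed for IgD expression in B cells (chr6:43307134-43369647, minus strand), was at the first position, 4.91, 7.39 and 10.5 kb in shCtrl. In shTHOC5 it was still at the first position at 20 min and then at 7.04 and 12.8 kb. ZNF292 was at 5.09, 6.17, 6.16 and 9.62 kb in shCtrl and at 6.12, 8.89, 10.2 and 11.05 kb in shTHOC5, farther in shTHOC5 at all 4 times by 1.03 to 3.99 kb. ZNF91, a repressor of SVA retrotransposons with 31 fingers, was nearer its start in shTHOC5. It was called at the first position, 2.17, 3.94 and 7.59 kb in shCtrl and at the first position, the first position, 0.74 and 4.24 kb in shTHOC5. ZNF254, whose canonical start is 53.8 kb farther on, was nearer in shTHOC5 at all 4 times, with differences of -0.841 to -2.28 kb, and ZNF451, a SUMO ligase, was farther at all 4, by 0.27 to 2.31 kb. ZNF91, ZNF254 and ZNF451 were chosen after their values were seen, so the directions of these 6 genes say nothing about the whole set.

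The whole set was then compared between the series, with a shift of more than 2 kb counted. The wave peak was nearer the listed start in shTHOC5 by more than 2 kb for 22 of the 83 zinc finger genes at 10 min (26.5%, beside 37.4% of all listed genes), 22 at 20 min (26.5%, beside 34.0%), 24 at 30 min (28.9%, beside 40.8%) and 22 at 40 min (26.5%, beside 34.7%). It was farther by more than 2 kb for 7 genes at 10 min (8.43%, beside 14.8%), 18 at 20 min (21.7%, beside 15.9%), 25 at 30 min (30.1%, beside 18.0%) and 29 at 40 min (34.9%, beside 24.2%). Farther and nearer zinc finger genes were thus 1 apart at 30 min and 7 apart at 40 min, while all listed genes held more nearer peaks at every time. The share over all listed genes lay outside the members' interval for nearer peaks at 10 and 30 min (18.2 to 36.9% and 20.3 to 39.4%) and for farther peaks at 30 and 40 min (21.3 to 40.7% and 25.6 to 45.7%), and inside it at the other times. The direction at 30 min differed between width classes. Of the 33 genes from 60 to 80 kb wide 9 were nearer and 14 farther, beside 36.4% and 17.5% of all genes of that width, and of the 26 genes over 120 kb 10 were nearer and 4 farther, beside 43.8% and 18.6%. Of the 24 genes from 80 to 120 kb wide 5 were nearer and 7 farther (20.8 and 29.2%). At 40 min the counts were 7 and 12 for the narrow genes (21.2 and 36.4%). They were 6 and 6 for the middle class (25.0% each) and 9 and 11 for the wide genes (34.6 and 42.3%). The shares over all listed genes of any width were 34.7 and 24.2% at that time. The interval treats genes of single libraries as independent draws, so a difference between cultures was not tested.

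With both peaks restricted to the gene, the medians of the 2 sets of genes had opposite signs at 30 and 40 min. The intervals of the zinc finger genes held 0 kb at both times. For zinc finger genes with the peak past the start and inside the gene in both series, the median of shTHOC5 minus shCtrl was -0.226 kb at 10 min (25 genes), -0.867 kb at 20 min (34 genes), 0.149 kb at 30 min (43 genes, interval -1.60 to 1.63, and -1.82 kb in the 18 of them over 120 kb wide) and 0.677 kb at 40 min (49 genes, -1.21 to 2.30). Over all listed genes the same medians were -1.88, -1.38, -2.09 and -0.942 kb. The last of these lay inside the interval of the zinc finger genes at 40 min, and that at 30 min lay outside. By width, the zinc finger medians at 40 min were 1.65 kb (60 to 80 kb, 14 genes), -0.449 kb (80 to 120 kb, 14 genes) and 0.053 kb (over 120 kb, 21 genes). The peak was nearer in shTHOC5 for 20 of 43 zinc finger genes at 30 min (46.5%, beside 70.5%) and for 20 of 49 at 40 min (40.8%, beside 60.03%). Over all 83 genes, edges and distant peaks included, the median of the differences was 0 kb at the first 3 times and 0.053 kb at 40 min. The same position was called in both series for 34, 22, 15 and 12 genes (41.0, 26.5, 18.1 and 14.5%). Over all listed genes these shares were 33.3, 25.2, 18.3 and 15.4%, each inside the members' interval. On chromosome 19, 6 of 25 zinc finger genes were nearer and 11 farther by more than 2 kb at 30 min, and 8 and 7 at 40 min. Elsewhere 18 and 14 of 58 were nearer and farther at 30 min (31.0 and 24.1%), and 14 and 22 at 40 min (24.1 and 37.9%). Over all listed genes of any chromosome the shares were 40.8 and 18.0% at 30 min and 34.7 and 24.2% at 40 min. The shifts on chromosome 19 were not set beside those of its other genes.

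**Figure D5:**
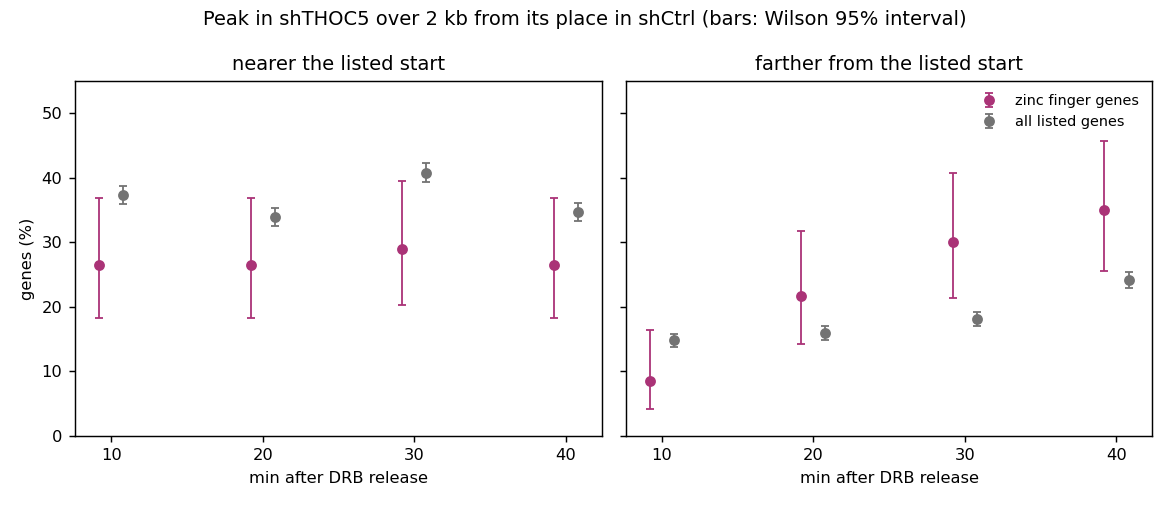
Share of genes whose peak in shTHOC5 lay over 2 kb nearer the listed start (left) or farther from it (right) than in shCtrl, in percent (vertical axis), against release time in min (horizontal axis); bars are Wilson 95% intervals over genes. Farther peaks of zinc finger genes go from 8.43% at 10 min to 34.9% at 40 min, and those of all listed genes from 14.8% to 24.2%.

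A wave that advances gives 4 peaks in rising order. This held for 15 zinc finger genes in shCtrl (18.1%, beside 13.2% of all listed genes) and for 26 in shTHOC5 (31.3%, beside 31.3%), and for 7 in both. The authors' filters kept 1 of the 83 genes in shCtrl (1.20%, interval 0.213 to 6.51%, beside 4.92% of all listed genes) and 7 in shTHOC5 (8.43%, interval 4.15 to 16.4%, beside 10.0%). These were ZNF341 and, in shTHOC5 alone, ZNF385C, ZNF432, ZNF292, ZNF608, ZNF420 and ZFP30. Of these 7, only ZNF292 and ZNF608 had their shTHOC5 peaks inside the gene and within 20 kb of the listed start. ZNF608 was called at 2.15, 5.04, 5.36 and 5.98 kb there, and at 6.38, 2.99, 5.39 and 9.17 kb in shCtrl.

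For the 7 genes in order in both series the median ratio of the deposited rates, shTHOC5 over shCtrl, was 0.997 (interval 0.202 to 1.37), and 4 of the 7 were below 1. Over the 424 listed genes of that kind it was 0.938 (0.916 to 0.956). The largest lags at 40 min were those of ZNF532 and ZNF131. ZNF532 was called at 61.6 kb in shCtrl and 7.38 kb in shTHOC5 at 40 min, after 8.64 and 7.04 kb at 30 min, so the difference of -54.3 kb rests on 1 call. ZNF131 was at the first position at 10 min in both series and then at 62.5, 63.4 and 65.1 kb in shCtrl and at 61.5, 62.2 and 63.4 kb in shTHOC5, past a canonical start at 55.7 kb. The leads were those of ZNF420, by 4.80 kb, ZNF519, by 0.677 kb, ZNF19, by 0.249 kb, and ZNF644, by 0.244 kb. ZNF519 was at 2.38, 3.19, 3.70 and 6.86 kb in shCtrl and at the first position, 3.93, 4.96 and 7.54 kb in shTHOC5. ZNF341 alone had the same 40 min position in both series, the end of the window. Of the 7 genes, only ZNF519 and ZNF644 had all 8 peaks within 20 kb of the listed start.

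Regulators of development and of blood cells in the set had uneven calls. ZEB1 and ZEB2 repress epithelial genes. ZEB1 (121 and 118 RPM) was at the first position at all 4 times in shCtrl and at the first position, 3.10, 9.29 and 9.06 kb in shTHOC5. ZEB2 (49.5 and 119 RPM) was at 4.95, 9.40, 7.83 and 4.99 kb in shCtrl and at 5.07, 8.03, 8.90 and 9.13 kb in shTHOC5. ZFHX4, a large homeodomain and zinc finger protein with 19 fingers (66.4 and 138 RPM), was at the first position, 5.12, 6.71 and 26.3 kb in shCtrl and at the first position, 2.20, 7.29 and 6.63 kb in shTHOC5. IKZF2 (4.57 and 21.8 RPM) was at the first position and IKZF1 at the last in nearly all libraries, 8 and 7 of 8. ZBTB16 and ZNF521, the latter a regulator of progenitor cells (4.78 and 24.5 RPM), jumped over long distances between times, with ZBTB16 at 9.24 and 108 kb at 30 and 40 min in shTHOC5. ZNF143, an activator that binds many promoters, was well covered (410 and 488 RPM) but went from the first to the last position, between 20 and 30 min in shCtrl and between 30 and 40 min in shTHOC5. No advancing wave was called for it in either series.

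Related lists gave a setting for these values. Other C2H2 factors with names outside the rule (KLF, SP, GLI, PRDM, HIVEP and the like) numbered 25. Of them 5 were in order in shCtrl (20.0%) and 9 in shTHOC5 (36.0%), and 11, 9, 8 and 8 were nearer and 4, 2, 10 and 9 farther by more than 2 kb at 10, 20, 30 and 40 min. HIVEP1 was at 4.49, 7.37, 8.49 and 10.4 kb in shCtrl and at 4.83, 7.54, 9.18 and 11.3 kb in shTHOC5, farther in shTHOC5 at all 4 times. Corepressors and silencing factors that work with zinc finger proteins numbered 18 and were covered more highly, with a median of 428 RPM in shCtrl and 417 RPM in shTHOC5. Among them 7 were in order in shCtrl (38.9%) and 10 in shTHOC5 (55.6%), and 9, 9, 6 and 6 were nearer and 0, 2, 2 and 7 farther at the 4 times. CTBP2, a corepressor that ZEB proteins bind, was at 5.12, 11.1, 11.5 and 11.8 kb in shCtrl and at 3.96, 7.43, 9.47 and 10.8 kb in shTHOC5, nearer in shTHOC5 at all 4 times. Of 11 genes with other zinc finger folds or with zinc finger homeoboxes (6 ZC3H, 2 ZHX and 3 ZMYM genes), 0 were in order in shCtrl and 4 in shTHOC5, and 2, 3, 6 and 2 were nearer and 0, 1, 0 and 1 farther. These counts describe lists of different coverage and size, and no difference between them was tested.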

How the data were processed

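DRB/TTchem-seq of HEK293 cells was used as 2 deposited tables of single genes, 1 per series, each built from 4 libraries. The authors deposited the coverage of each window, scaled to RPM per their methods, under a header that reads RPKM. RPM is used here, as the values of each table sum to 1000000 over the listed genes. The tables also hold whole-position wave peaks at 10, 20, 30 and 40 min and rates in kb/min. The rate equals a least-squares slope through the 4 peaks and the first window position at 0 min. The aligner's settings and the strand used in calling peaks are not given in the sources used here. No column of another sample was present (0).

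Gene identifiers were mapped to GENCODE release 44 (GRCh38), with peaks placed only for genes of equal width. C2H2 fingers were counted in the translated canonical coding sequence. Promoter starts came from RefSeq (GRCh38.p14). Scripts used Python 3.11.15, numpy 2.4.6, pandas 2.3.3, scipy 1.17.1 and matplotlib 3.10.9, and were tested on simulated data. With 1 library per condition and time no test was run.

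The members and lists were chosen with earlier results of these data known, and counting from the canonical start was chosen after seeing the data. Named genes were those kept in either series, with the largest lags and leads, with the highest and lowest coverage, with all peaks past the end, in a supplementary gene list of the study (ZNF318, ZNF644), in the largest clusters, or known regulators. ZNF91, ZNF254, ZNF451, ZNF608, ZNF638, ZNF197, ZNF235, ZNF280C, ZNF710, ZNF730, HIVEP1 and CTBP2 were chosen after their values were seen.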

Additional observations from a re-analysis of the deposited data

How the results depend on the processing

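Of 93 alternative values for 19 results, 66 moved by less than the interval over genes and 27 by more. The interval of each median difference between the series held 0 kb, so no direction had been called there that could turn. Over genes under 120 kb wide, the share with the peak past the gene end was 33.3% at 40 min in shCtrl, 33.3% at 30 min in shTHOC5 and 36.8% at 40 min in shTHOC5. The mean difference, shTHOC5 minus shCtrl, in place of the median was -7.37, -2.72, -1.66 and 6.16 kb at 10, 20, 30 and 40 min. The median inside the gene in both series was -0.226 kb (10 min) or -0.867 kb (20 min). With peaks at the window ends left out, the 10 min median was -0.181 kb. Peaks that never fell back, ties allowed, were found in 41.0% of genes in shCtrl and 62.7% in shTHOC5. Leaving out the 10, 20, 30 or 40 min library put 31.3, 37.3, 38.6 or 27.7% of genes in order in shCtrl and 45.8, 49.4, 43.4 or 44.6% in shTHOC5, where fewer peaks have to be in order. Among genes with all 4 peaks inside the gene, 50.0% were in order in shTHOC5. Mean coverage was 175 RPM in shCtrl and 209.7 RPM in shTHOC5. For the 9 genes with peaks past a later canonical start, the median rate was 0.194 and 0.212 kb/min from that start. Over the 4 times alone it was 0.111 and 0.143 kb/min. Both were chosen after seeing the data, and the change with the start is fixed by the distance between the starts.

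The series were matched by release time in every difference above. A fit with time as a block was not run, since it would treat the change of the difference with time as error. Read depth per library is unknown, so counting error could not be given.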

Other observations

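The shared positions of ZNF540 and ZFP30 had counterparts over the whole list. For pairs of listed genes on opposite strands with overlapping windows and both peaks in the shared stretch, 79 of 176 calls in 47 pairs (44.9%) lay within 100 bp of each other. For pairs on the same strand it was 6 of 194 calls in 54 pairs (3.09%). The only other zinc finger gene in such a pair was ZNF609, whose peaks were 931 and 1162 bp from those of TRIP4 on the same strand.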
